A study of Homo sapiens with 8 samples.

Results

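miR-630 and miR-5703 (hsa-miR-630 and hsa-miR-5703 on the array) are 2 human microRNAs (miRNAs) whose levels were followed in PC-3, a prostate cancer cell line, after treatment with luteolin, gefitinib or both. They were selected on their own array signal, as the pair the study picked out for its change against the solvent, so every difference that could have led to this choice is given below as a description without a test. They are 2 of the 1887 human miRNAs on the array and 2 of the 365 that were detected on all 8 arrays. Luteolin is a plant flavonoid, and gefitinib inhibits the tyrosine kinase of the epidermal growth factor receptor. For 24 h the cells were given the solvent DMSO alone, luteolin at 60 µM, gefitinib at 60 µM, or the 2 drugs together at these doses. There were 2 arrays in each of the 4 groups, labelled as biological replicates. A single cell line, dose and time were measured.

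A miRNA is a short RNA that guides an Argonaute protein to messenger RNAs and lowers their translation or stability. Target choice rests mainly on the seed, bases 2 to 8 from the 5′ end. The 3′ part of a mature miRNA can add to pairing with a target, and it is also the part that the probes of this array platform bind. miR-630 has been linked to the response of cancer cells to DNA-damaging drugs, whereas little is known of miR-5703.

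The mature sequences from RefSeq (GRCh38.p14) are shown first with the seed in capitals, since it sets which targets each miRNA could pair with, and then with the shared end in capitals, since the probes bind the 3′ part. Mature miR-630 lies at chr15:72587277-72587298 on the plus strand, in a hairpin within the protein-coding gene ARIH1. Mature miR-5703 lies at chr2:227472162-227472179 on the plus strand, within the annotated span of the protein-coding gene AGFG1, while its hairpin overlaps that span only in part.
miR-630, seed in capitals: aGUAUUCUguaccagggaaggu
miR-5703, seed in capitals: aGGAGAAGucgggaaggu
miR-630, shared end in capitals: aguauucuguaccaGGGAAGGU
miR-5703, shared end in capitals: aggagaagucGGGAAGGU

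The seeds differed, and the last 8 bases were identical. miR-630 has 22 bases and miR-5703 has 18. Of the 1578 array miRNAs that were found by name in the RefSeq table, only these 2 ended in the 8 bases GGGAAGGU. The last 6 bases were also those of miR-4256 and miR-4431, and neither was detected on any array. The seed of miR-630 was found in no other miRNA of the table, while that of miR-5703 was also the seed of miR-4434 and miR-4516. miR-4434 was detected on no array and miR-4516 on all 8.
miR-4516, seed in capitals: gGGAGAAGggucggggc

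All 8 arrays lay on 1 slide and were read in 1 scan. Each treatment occupied 1 column of the slide, in the order DMSO, luteolin, gefitinib and the 2 drugs together, and each replicate number occupied 1 row. Hence the treatment and the slide column cannot be told apart. The scanner software detected between 395 and 481 miRNAs per array. Among markers of epithelial cells, miR-200b-3p was detected on all 8 arrays, miR-205-5p on 6, and miR-200c-3p and miR-141-3p on none. Of 5 markers of blood cells, miR-142-3p was detected on 1 array and the others on none, and none of the 4 markers of liver and muscle was detected.

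The signal of both miRNAs was low with DMSO and luteolin and high on every array with gefitinib. The scaled signal, on a linear scale after the arrays were brought to a common 75th percentile, was 32.0 and 18.6 for miR-630 on replicates 1 and 2 of DMSO, 40.2 and 24.8 with luteolin, 112 and 121 with gefitinib, and 79.4 and 111 with luteolin plus gefitinib. For miR-5703 it was 33.5 and 19.4 with DMSO, 42.2 and 25.8 with luteolin, 105 and 114 with gefitinib, and 81.9 and 125 with luteolin plus gefitinib. The luteolin arrays overlapped the DMSO arrays for both miRNAs, where 9.17% of the 480 miRNAs tested had both luteolin arrays above both DMSO arrays. Within each row of the slide, that is, for each replicate number, luteolin was the higher for both miRNAs. All 4 arrays with gefitinib lay above all 4 arrays without it. In bulk RNA, a change in the number of cells that express a miRNA and a change in its level per cell cannot be told apart.

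**Figure D1:**
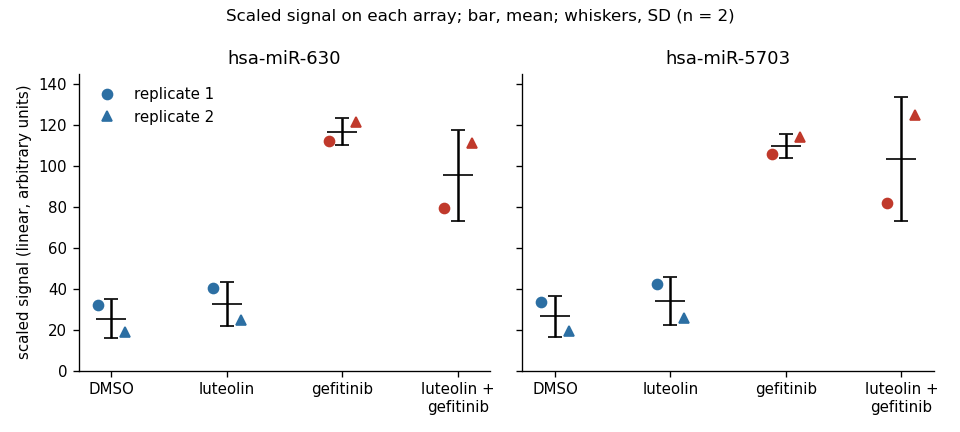
Scaled signal (linear, arbitrary units) of miR-630 and miR-5703 on each array, with the group mean (bar) and SD (whiskers, n = 2). The 4 arrays with gefitinib lie between 79.4 and 125, and the 4 without it between 18.6 and 42.2.

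Against DMSO, gefitinib gave a fold of 4.77 for miR-630 and 4.30 for miR-5703 (log2 difference 2.26, SE 0.36, and 2.11, SE 0.38). It was 3.85 and 3.97 with luteolin plus gefitinib (1.95 and 1.99), and 1.29 and 1.30 with luteolin (0.37 and 0.38), with the same standard errors. Without DMSO replicate 2, which leaves replicate 1 of DMSO against both luteolin replicates, the log2 difference with luteolin turned to -0.02 for each. With normexp background correction and quantile normalization, that from DMSO was 1.39 and 1.35 with gefitinib and 1.19 and 1.20 with both drugs. Gefitinib exceeded luteolin by 3.69-fold for miR-630 (1.88) and 3.32-fold for miR-5703 (1.73), or 1.17 and 1.13 on the log2 scale with normexp. Of the 480 miRNAs, 21.5% had both gefitinib arrays above both DMSO arrays, 20.4% had this for luteolin plus gefitinib against DMSO, and 22.5% for gefitinib against luteolin, so that a gap without overlap was common on these arrays. The SD of log2 signal over the 8 arrays came to 1.08 (miR-630) and 1.06 (miR-5703), where the median over the 365 miRNAs was 0.27, a measure that the choice of the pair used.

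Luteolin plus gefitinib against luteolin is a description too, since the arrays with both drugs were among those on which the pair was picked. miR-630 was 2.98-fold higher with both drugs than with luteolin (log2 difference 1.57, SE 0.36) and miR-5703 was 3.06-fold higher (1.61, SE 0.38). Both arrays with both drugs lay above both luteolin arrays, as for 16.5% of the miRNAs. In this comparison 9 of the 480 miRNAs passed the limma test (1.88%), none of them a member of the pair, and 74 had a limma p under 0.05 before adjustment. The count ran from 0 to 41 over the alternatives, from 3 to 18 on leaving out 1 array, and included the pair under 3 alternatives. With normexp and quantile normalization the log2 differences fell to 0.97 (miR-630) and 0.98 (miR-5703).

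Luteolin added to gefitinib gave 0.807 times the gefitinib signal for miR-630 (log2 difference -0.31, SE 0.36) and 0.922 times for miR-5703 (-0.12, SE 0.38). Both arrays with both drugs lay below both gefitinib arrays for miR-630, a pattern that 32.5% of the miRNAs tested had, and the arrays overlapped for miR-5703. For miR-5703 the probes gave opposite directions, 0.772 times and 1.09 times. The first probe had 0 and 0 spots flagged as outliers and dropped with gefitinib and 2 and 2 with both drugs. The second had 3 and 2, then 0 and 0. Whether this set the directions was not tested. Without replicate 1 of luteolin plus gefitinib, the log2 difference of miR-5703 turned to 0.19. Each of these differences was smaller than its standard error, but this depended on the scaling. With no scaling between arrays, luteolin plus gefitinib differed from gefitinib by -0.65 (SE 0.39) for miR-630 and -0.46 (SE 0.39) for miR-5703. With quantile normalization the difference exceeded its standard error for miR-630 (-0.40, SE 0.33) but not for miR-5703 (-0.20, SE 0.34). With the mean of all spots it did so for neither (-0.20, SE 0.34, and -0.12, SE 0.35). The effect of the combination minus the sum of the single effects, on the log2 scale, was -0.68 (SE 0.52) for miR-630 and -0.49 (SE 0.54) for miR-5703. With no scaling between arrays it was -1.17 and -0.98, and leaving out 1 array gave -1.08 to -0.29 and -0.89 to -0.10.

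Replicates diverged in opposite ways in groups with and without gefitinib. Replicate 1 exceeded replicate 2 for both miRNAs with DMSO, by 0.79 and 0.79 on the log2 scale, and with luteolin, by 0.70 and 0.71. With gefitinib it was the lower one (-0.12 and -0.11), as it was with luteolin plus gefitinib (-0.48 and -0.61). The median size of this difference over the 365 miRNAs was 0.32 and 0.39 in these first groups, and 0.10 and 0.19 in the others. The spread of the pair between replicates was thus above that of a typical miRNA in all 4 groups, with the narrowest margin for gefitinib.

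The ratio of the 2 miRNAs varied little while their levels changed. The log2 ratio of miR-630 to miR-5703 was -0.06 and -0.06 with DMSO, -0.07 and -0.06 with luteolin, 0.08 and 0.09 with gefitinib, and -0.04 and -0.17 with luteolin plus gefitinib. It was above 0 on both gefitinib arrays and below 0 on the other 6. Its SD over the 8 arrays was 0.085. Of the 66430 pairs among the 365 miRNAs, 0.646% had an SD at or below this, and the median was 0.439. Both members were picked for a change against DMSO on these arrays, which favours a small SD, so this rank is a description. The 317 miRNAs read by 2 probes had a median SD of 0.102 between their own probes. That is a ratio of single probes, whereas the ratio of the pair is one of totals over 2 probes each. A common source of signal for both miRNAs was not tested.

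The ratio was compared between arrays with and without each drug. It was -0.01 on average on the 4 arrays with gefitinib and -0.06 on the 4 without (exact permutation test, two-sided, p = 0.314). It was -0.09 on the 4 arrays with luteolin and 0.01 on the 4 without (exact permutation test, two-sided, p = 0.200). After adjustment over both exact tests, each p was 0.314. Neither direction held throughout. The difference with gefitinib turned to -0.039 with the second probe of each miRNA, and that with luteolin to 0.048 with the first. A single test of 4 arrays against 4 cannot give less than 0.0286, and after adjustment the smallest p these 2 tests allow is 0.0571, so that neither could pass the threshold of 0.05 and the p-values say nothing of whether the ratio stayed the same.

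Each miRNA was read by 2 probes of 15 spots each. Against DMSO, the probes of miR-630 gave 4.91-fold and 4.64-fold with gefitinib, and 4.12-fold and 3.57-fold with both drugs. The probes of miR-5703 gave 4.64-fold and 3.97-fold with gefitinib, and 3.58-fold and 4.34-fold with both drugs. All 15 spots of each probe were well above background on every array. Of the 6 pairs among these 4 probes, both the closest and the loosest were across the miRNAs. The SD of the log2 ratio over the 8 arrays was 0.022 for the second miR-630 probe against the first miR-5703 probe, and 0.114, 0.172 and 0.194 for the other pairs across miRNAs. It was 0.124 between the probes of miR-630 and 0.192 between those of miR-5703. Spots flagged as outliers, which the software drops, differed between these probes. The second miR-630 probe and the first miR-5703 probe each had 0 and 0 on the gefitinib replicates and 2 and 2 with both drugs. The first miR-630 probe had 0 and 0, then 0 and 2, and the second miR-5703 probe 3 and 2, then 0 and 0. Whether this set the order of the SDs was not tested.

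Other pairs with a shared 3′ end were examined as a description. Among 303 miRNAs that were detected on all arrays and found in RefSeq, 21 pairs shared 8 or more bases at the 3′ end, with a median SD of the log2 ratio of 0.130. It was 0.341 for 40 pairs that shared 6 or 7, 0.386 for 283 that shared 4 or 5, and 0.446 for 45409 that shared 3 or fewer. Of the 21 pairs, 3 had a smaller SD than miR-630 with miR-5703: let-7a-5p with let-7f-5p, miR-20a-5p with miR-20b-5p, and miR-29a-3p with miR-29c-3p. These 3 are members of one family each and share the seed. Of the 7 pairs with 8 or more shared bases and different seeds, whose median was 0.251, miR-630 with miR-5703 had the smallest. The choice of this pair for a change that both members showed favours a small SD here too.

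The single spots showed a second feature of the pair. With DMSO, the 60 spots of both miRNAs lay between 44.6 and 64.5 on replicate 1 and between 22.7 and 37.8 on replicate 2 (processed signal, linear and not scaled). With luteolin they lay between 64.5 and 94.2 and between 33.9 and 54.0. With gefitinib they ranged more widely, from 168 to 343 and from 179 to 391, and with luteolin plus gefitinib from 111 to 312 and from 122.1 to 331. The coefficient of variation over the 60 spots was 8.20% to 11.1% on the 4 arrays without gefitinib and 23.4% to 34.3% on the 4 with it. Every spot with gefitinib, alone or with luteolin, exceeded every spot of the DMSO and luteolin arrays.

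The bright spots fell on a lattice of positions. On both gefitinib arrays, the 18 spots whose column on the array is a multiple of 4 were the 18 brightest of the 60. On both arrays with luteolin plus gefitinib, the 12 spots whose column is 2 past a multiple of 4 were the 12 brightest. Within these columns, spots in even rows were brighter: with gefitinib the 11 in even rows had medians of 327 and 380 and the 7 in odd rows 260 and 287, and with both drugs the 8 in even rows had 290 and 310 and the 4 in odd rows 246 and 241. The 30 spots in odd columns had medians of 194.4 and 213 with gefitinib and 147 and 155 with both drugs. With DMSO and luteolin the differences between positions were smaller: the medians of the 3 kinds of column lay between 52.6 and 56.4 and between 28.3 and 29.4 on the DMSO arrays, and between 75.4 and 82.2 and between 42.1 and 45.2 on the luteolin arrays. The largest such difference was on luteolin replicate 1, where the 8 spots in even rows and columns 2 past a multiple of 4 had a median of 86.6 and 4 of them were among the 8 brightest. On DMSO replicate 1 these spots had a median of 56.8, and 4 of them were again among the 8 brightest. These classes of position were chosen after the values had been seen, and no test was made on them.

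**Figure D2:**
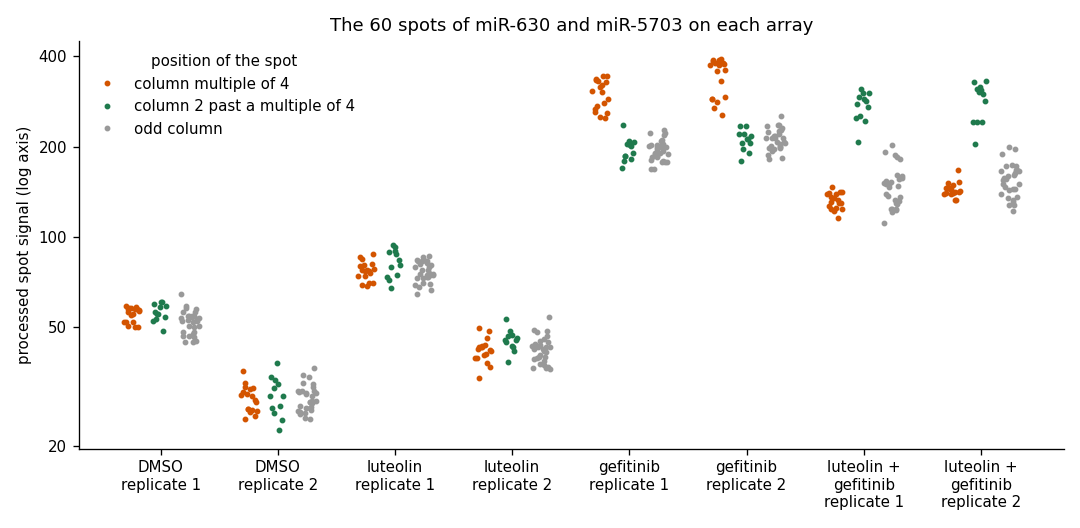
Processed signal (log axis) of each of the 60 spots of miR-630 and miR-5703 on the 8 arrays, coloured by the column of the spot. Columns that are multiples of 4 hold the 18 brightest spots on both gefitinib arrays, and columns 2 past a multiple of 4 the 12 brightest on both arrays with luteolin plus gefitinib.

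The gefitinib arrays shared their order of spots, as did the arrays with both drugs, and these groups had different orders. Over the 60 spots, Spearman's rho was 0.88 between the gefitinib arrays and 0.86 between the arrays with both drugs, but -0.44 to -0.49 between an array of one group and one of the other. Of the 15 brightest spots of an array, 14 were shared within each of these groups and 0 across them. Between other groups the sharing was weaker. Spearman's rho was 0.40 to 0.53 between luteolin and both drugs, with 7 to 9 of the 15 spots in common, 0.40 to 0.54 between luteolin and DMSO, with 6 to 9, and 0.28 to 0.29 between DMSO and both drugs, with 5 or 6. It was -0.08 to 0.38 between gefitinib and either DMSO or luteolin. Between the luteolin replicates rho was 0.53 with 4 spots in common, and between the DMSO replicates 0.30 with 9. Each treatment had its own slide column, so that treatment and column cannot be told apart here either.

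The rise of the pair was also present in odd columns, which were not uniform themselves. In even rows, spots 1 past a multiple of 4 had medians of 173 and 173 with both drugs and spots 3 past it 131 and 138, whereas with gefitinib the order was turned, at 180.2 and 205.9 against 219.9 and 232. For the 30 spots in odd columns, the ratio of the mean of the gefitinib arrays to that of the DMSO arrays was 4.20 to 6.15 (median 4.94), against 4.20 to 9.55 over all 60 (median 5.08). For luteolin plus gefitinib against DMSO it was 3.14 to 4.92 (median 3.69) in odd columns and 2.93 to 7.71 over all spots. For luteolin plus gefitinib against luteolin it was 2.05 to 3.07 (median 2.58) in odd columns and up to 5.71 over all spots. When all miRNAs were refitted with odd-column spots only, the log2 difference from DMSO with gefitinib came to 2.07 (miR-630) and 2.04 (miR-5703), and for both drugs against luteolin it was 1.504 and 1.47.

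The software drops spots that it flags as outliers of their probe, and these differed between the 2 miRNAs. On arrays with gefitinib, 15 spots of the pair were flagged, of which 14 lay in even rows and bright columns. With gefitinib alone they were all spots of miR-5703, 3 and 2 on the replicates. On replicate 2 of luteolin plus gefitinib, 4 were spots of miR-630 and 2 of miR-5703. With the mean of all 30 spots per miRNA, the log2 ratio of the pair was 0.01 and 0.03 with gefitinib and -0.08 to -0.03 on the other 6 arrays, and its SD over the 8 arrays was 0.040. With the median of the spots it was 0.01 and 0.04 with gefitinib and -0.10 to -0.07 on the others. With odd-column spots only it was -0.04 and -0.04 with gefitinib, within the range of -0.12 to 0.00 of the other arrays, and the SD was 0.038. The gefitinib arrays thus lay above the others with the total signal, the mean and the median of the spots, and by a narrower gap with the last 2, but not with odd columns.

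**Figure D3:**
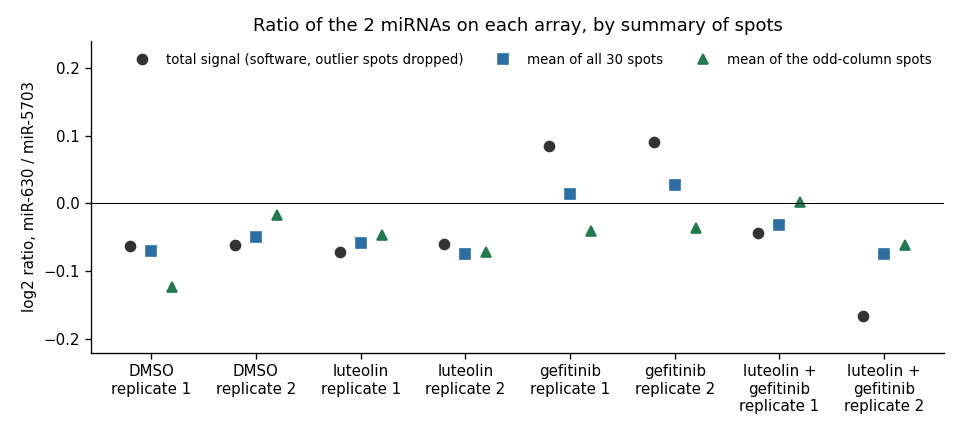
Log2 ratio of miR-630 to miR-5703 on each array for 3 ways of summarising spots: the total signal of the software, the mean of all 30 spots per miRNA, and the mean of spots in odd columns. The total signal gives 0.08 and 0.09 on the gefitinib arrays, and odd columns give -0.04 on both.

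The lattice was seen in a small set of other miRNAs. For each miRNA with a median spot signal above 20 on every array, the median of spots in the bright columns was divided by that of odd columns, within each probe. With gefitinib this ratio was 1.60 and 1.72 for miR-630 and 1.56 and 1.75 for miR-5703, while the median of the other miRNAs was 0.922 and 0.939. With luteolin plus gefitinib it was 1.93 and 1.86 for miR-630 and 1.93 and 1.87 for miR-5703, against a median of 0.915 and 0.926. At the positions that were bright with both drugs, the ratio of either miRNA lay between 1.05 and 1.17 on the luteolin arrays and between 1.04 and 1.12 on the DMSO arrays. No other miRNA exceeded 1.5 at these positions on any DMSO or luteolin array. On both gefitinib arrays 14 others exceeded 1.5, and on both arrays with the 2 drugs 16 did, including all of those 14.

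**Figure D4:**
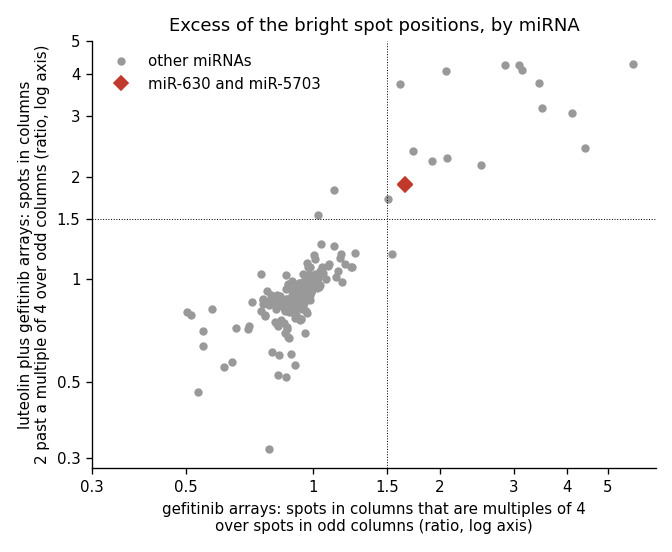
Signal of the bright columns over that of odd columns for each miRNA compared (log axes), as the geometric mean of replicates, on gefitinib arrays (columns that are multiples of 4) and on luteolin plus gefitinib arrays (columns 2 past a multiple of 4). miR-630 and miR-5703, whose points coincide, lie above 1.5 (dotted lines) on both axes, as do the 14 other miRNAs that exceeded 1.5 on each of the 4 arrays and 1 whose mean passes it.

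The miRNAs of this set shared a feature of sequence. Of the 16, members of the pair included, 14 were found in RefSeq, and all 14 had the 3 bases GGA within their last 10 bases. Of 153 other miRNAs in the same comparison, 15.03% had GGA there, searched on the miRNA strand alone, and in the whole RefSeq table it was 17.3%. Conversely, 37 of the miRNAs compared had GGA there, and 23 of them lacked the lattice. The motif was looked for after the set had been seen. Members of the set are printed beside the pair to show this end, with the last GGA in capitals, and their ratios ran from 2.86 to 6.31 over the 4 arrays with gefitinib, where all 14 miRNAs other than the pair ran from 1.53 to 6.31.
miR-630: aguauucuguaccagGGAaggu
miR-5703: aggagaagucgGGAaggu
miR-1305: uuuucaacucuaaugGGAgaga
miR-3125: uagaggaagcuguGGAgaga
miR-3198: guggaguccuggggaauGGAga
miR-5581-5p: agccuuccaggagaaauGGAga

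The level of the other miRNAs with the lattice was compared with DMSO. With gefitinib, 3 of the 14 had a log2 difference from DMSO above 0, their median was -0.11, and 0 of them passed the limma test as higher. The median of the other miRNAs in this comparison was -0.12. With luteolin plus gefitinib, 7 of 16 were above 0, with a median of -0.01 against -0.11, and 4 of the 16 passed as higher, of 14 that did so among all miRNAs in this comparison. These miRNAs were picked by bright spots on the same arrays. Such spots, unless dropped as outliers, enter the total signal, so these shares are a description. Among all 480 miRNAs, 7.5% passed as higher with gefitinib and 6.04% with both drugs. In the 14 miRNAs that shared the lattice with the pair in both groups, the highest log2 difference from DMSO was 0.36 with gefitinib (miR-4788) and 1.12 with both drugs (miR-5194, followed by miR-3125 at 0.97). Each was below that of the pair, which had been picked for its change against DMSO.

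miR-4516 has the seed of miR-5703 and a different 3′ end. In both groups with gefitinib it differed less from DMSO than the pair, which had been picked for such a difference. With luteolin alone miR-4516 did not differ less. Its scaled signal was 274 and 275 on the DMSO arrays, between 366 and 415 with luteolin, between 467 and 506 with gefitinib, and between 490 and 585 with luteolin plus gefitinib. All 6 drug-treated arrays lay above the DMSO arrays. It rose by 0.82 with gefitinib (SE 0.15, limma adjusted p = 0.0288) and by 0.96 with both drugs (adjusted p = 0.0158), while with luteolin the log2 difference was 0.50 (adjusted p = 0.340). With both drugs against luteolin it was 0.46 (adjusted p = 0.226). The first call was lost without either DMSO replicate (adjusted p = 0.0923 and 0.126) or either gefitinib replicate (0.141 and 0.154), and the second without either DMSO replicate (0.0696 and 0.0795) or replicate 2 of luteolin plus gefitinib (0.0686). With all miRNAs tested and no filter, the limma adjusted p was 0.114 and 0.0774. Its spots showed no lattice, with ratios of 0.972 and 0.987 on the gefitinib arrays.

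The miRNAs most like the pair were ranked by Pearson's r with the mean log2 signal of the pair over the 8 arrays, among those detected on all of them. The 5 highest were miR-150-3p (0.979), miR-3162-5p (0.972), miR-4687-3p (0.970), miR-4746-3p (0.969) and miR-4443 (0.967). These arrays share 1 slide and 1 scan, and r says nothing of size. miR-3162-5p differed from DMSO by 0.36 with gefitinib (log2) and by 0.32 with both drugs, and miR-150-3p by 0.75 and 0.82. miR-4687-3p differed by 1.16 and 1.21, miR-4746-3p by 1.51 and 1.10, and miR-4443 by 1.30 and 1.16. Thus each was high on the arrays with gefitinib, which a ranking by r with the pair favours. All changed less than miR-630 and miR-5703, which had been picked for their change against DMSO. None of the 4 that could be examined for the lattice was above a ratio of 1.05 on any array with gefitinib, and miR-150-3p was too dim for this.

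**Figure D5:**
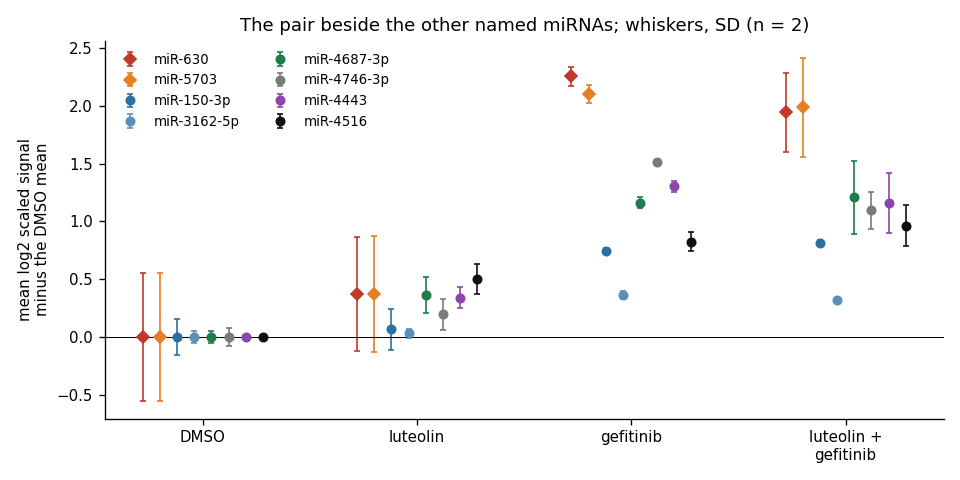
Mean log2 scaled signal in each group minus the DMSO mean for miR-630, miR-5703, the 5 miRNAs most like them and miR-4516, with the SD of the group (whiskers, n = 2). The pair, picked for its change against DMSO, lies highest with gefitinib (2.26 and 2.11) and with both drugs (1.95 and 1.99).

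Since miR-630 is known from cells with DNA damage, 13 miRNAs linked to p53 and DNA damage were examined beside it. p53 is a transcription factor that responds to DNA damage, and PC-3 cells lack a working copy of it. Of the 13, 8 were tested and none passed in any of 6 comparisons, in either direction, where the share of all miRNAs that passed against DMSO was 2.08% (luteolin), 12.1% (gefitinib) and 12.1% (both drugs). Among the drug groups it was 1.88% for the combination against luteolin, 4.58% for it against gefitinib, and 5% between the single drugs. miR-34a-5p, a direct target of p53, was detected on all 8 arrays at scaled signals of 10.9 to 18.5, and its log2 difference from DMSO was -0.02 under luteolin and -0.05 in either group that received gefitinib. miR-34b-5p, miR-34c-5p, miR-143-3p, miR-145-5p and miR-605 were detected on no array. The median log2 difference of the 8 was -0.04 with gefitinib and -0.13 with both drugs, beside -0.10 and -0.16 over all 480.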

How the data were processed

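Total RNA of PC-3 cells was labelled with Cy3 and hybridised by the authors to 1-colour Agilent miRNA arrays. Per the file headers, each array was extracted on its own with Agilent Feature Extraction 10.7.3.1, so the intensity deposited by the authors is on a linear scale, background-subtracted and not scaled between arrays. The software drops outlier spots, sums the probes of a miRNA to a total signal, and sets the total to 0.1 where it is not detected. None of the miRNA spots were saturated (0 of 56610 per array). The deposited value table held the same intensity per spot.

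Total signals were scaled to the 75th percentile over the 365 miRNAs detected on all 8 arrays, between 60.5 and 92.7 before scaling, raised to a floor of 0.609, and taken to log2. All 4 groups were fitted together with limma 3.58.1 in R 4.3.3 over the 480 miRNAs that had a detected signal on the whole of any 1 group (4 residual degrees of freedom, 1.66 added by the prior). A miRNA passed when its two-sided limma p, adjusted by the Benjamini-Hochberg method, was under 0.05. A limma test of luteolin plus gefitinib against luteolin was planned for the pair (adjusted p = 0.138 for each, with the spread taken from all 4 groups). The pair did not pass, and the arrays with both drugs had part in its choice, so this p supports nothing. With only the 2 groups compared in the fit, the limma adjusted p was 0.441. The median of all tested miRNAs lay at -0.10 with gefitinib and -0.16 with both drugs against DMSO. With 2 arrays per group, the number of arrays limits the precision.

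Sequences were read from a RefSeq table by name, and 1578 of 1887 names matched. Named miRNAs were the pair, the 5 most like it, those sharing its seeds or its last 6 bases, and list members that passed, of which there were none. The p53 list members and cell markers named were chosen after their values had been seen. The pairs compared with it, the miRNAs with the lattice and the 4 printed from it were chosen after their values had been seen, as were the odd-column and median-spot summaries. The members and lists were chosen with earlier results of these data known. Alternatives changed the scaling, the summary of spots, the background correction, the filter, the floor, the test and the arrays used. The scripts were tested on simulated data. Figures were drawn with matplotlib 3.10.9.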

Additional observations from a re-analysis of the deposited data

How the results depend on the processing

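The difference of luteolin plus gefitinib from luteolin was positive for both miRNAs under all 25 alternatives. Its limma adjusted p, which is no independent test, was under the threshold in 3 of them: with the mean of all spots (log2 difference 1.63 for miR-630 and 1.62 for miR-5703, adjusted p = 0.0437 for each), with the series value table (1.63 and 1.62, limma adjusted p = 0.0434 for each) and with normexp and quantile normalization (0.97 and 0.98, limma adjusted p = 0.0310 and 0.0357). The highest was 0.741 and 0.765, with no filter. Leaving out 1 array gave 1.22 to 1.92 and 1.26 to 1.97, with no pass. The limma count in this comparison, 9, was 2 with no scaling, 19 with quantile normalization, 29 with the mean of all spots, 28 with the series table, 41 with normexp, 4 with only miRNAs detected on all arrays, 3 with no filter, 15 with log2 of signal plus 16, 0 with only the groups compared (44 before adjustment), 1 with the methods' t-test (29) and 5 with the replicate block. It was 1 with the median of spots and 0 with odd columns only (54 before adjustment) (both chosen after seeing the data). Leaving out 1 array gave 3 to 18: 18 and 15 on leaving out replicate 1 or 2 of luteolin, 3 for either replicate of gefitinib, and 17 and 4 for those of the combination.

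Against DMSO, normexp gave 1.39 and 1.35 for the pair with gefitinib and 1.19 and 1.20 with both drugs, and 1.17 and 1.13 for gefitinib against luteolin. Log2 of signal plus 16 gave 1.70 and 1.59 with gefitinib, 1.43 and 1.49 with both drugs, and 1.47 for miR-630 with gefitinib against luteolin. With no scaling the combined effect minus the sum was -1.17 and -0.98, and the combination against gefitinib was -0.65 and -0.46. Without 1 array, gefitinib minus DMSO was 1.86 to 2.65 for miR-630 and 1.71 to 2.50 for miR-5703, and that of both drugs 1.55 to 2.34 and 1.59 to 2.38. For luteolin it was -0.02 to 0.77 for each, lowest without DMSO replicate 2. Gefitinib against luteolin gave 1.53 to 2.23 and 1.38 to 2.08. The combination against gefitinib gave -0.55 to -0.07 for miR-630 and -0.42 to 0.19 for miR-5703, positive without replicate 1 of the combination, and 0.13 with its second probe, and the combined effect minus the sum -1.08 to -0.29 and -0.89 to -0.10.

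The SD of the ratio of the pair was 0.040 with the mean of all spots, 0.194 with the second probe of each, 0.024 with normexp and 0.038 with odd columns, and 0.072 to 0.092 without 1 array. The difference with gefitinib was 0.15 with the first probe of each (exact permutation p = 0.0286, the smallest possible, and 0.0571 after adjustment) and turned to -0.039 with the second probes (exact permutation p = 0.657), and that with luteolin turned to 0.048 with the first probes (exact permutation p = 0.686) and 0.0096 with odd columns (exact permutation p = 0.800). The cause was not tested. Without 1 array these differences were 0.02 to 0.11 and -0.12 to -0.07. Ranking by the SD of the ratio kept 2 of the 5 miRNAs most like the pair. No p53 list member passed under the alternatives refitted for every comparison.

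Same-numbered arrays did not all deviate together (r of replicate differences -0.13 to 0.91), so numbers were not taken as pairs. With the replicate block, which is also the slide row, the limma adjusted p of luteolin plus gefitinib against luteolin was 0.159 for each miRNA. Scaling to the 75th percentile of all miRNAs gave no value.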
